A study of Mus musculus with 24 samples.

Results

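The comparison of liver FFPE with liver Frozen covers 4 of the 24 samples of a mouse study of histone acetylation, 2 H3K27Ac libraries from formalin-fixed, paraffin-embedded liver and 2 from flash-frozen liver. The members were taken from the organ and preservation named in the sample titles, and all genes were examined. The table holds 1 column for each preservation of liver, so the 4 samples appear as 2 columns, and 26944 of its 27179 genes had a count in at least 1 of its 8 columns. Of these, 22316 had at least 40 counts over the liver pair. The other columns come from heart, kidney and brain, each as FFPE and Frozen, and give the same difference in 3 other organs.

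Liver FFPE was organ tissue kept in 10% formalin, embedded in paraffin, later freed of paraffin and extracted at 95 °C for 20 min. Liver Frozen was flash-frozen tissue, cored and then crosslinked with 1% formaldehyde for 30 min. Chromatin of both was sheared by ultrasound and precipitated with the same antibody, and the same 2 preparations were used in heart, kidney and brain. The labels give no genotype, strain, age, sex or animal, so a difference between mice cannot be told apart from preservation. They name 2 ChIP runs and 2 kinds of library kit, neither of which can be matched to the columns.

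H3K27Ac is histone H3 acetylated at lysine 27, a mark placed by the acetyltransferases p300 and CBP at active promoters and enhancers. In liver, hepatocytes carry broad acetylation over the genes of plasma proteins, lipoproteins and metabolism, held by factors such as HNF4A, the FOXA proteins and C/EBP alpha. Formalin fixation joins proteins and DNA by crosslinks, which heat partly reverses, while frozen tissue is crosslinked only briefly before shearing.

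Values are log2 CPM, counts scaled for the size of each column, as deposited. The whole counts behind them summed to 4404789 in liver FFPE and 6164562 in liver Frozen. Genes of the mitochondrial DNA, which carries no histones, took 12.7% of the counts in liver FFPE and 5.29% in liver Frozen, against 16.0% to 36.0% in the other FFPE columns and 4.52% to 5.62% in the other Frozen columns. The SD of log2 CPM over genes was 1.95 in liver FFPE and 2.30 in liver Frozen. The pair in heart was alike in this, with 1.99 in FFPE and 2.31 in Frozen, while kidney had 1.92 in FFPE and 1.93 in Frozen and brain had 1.82 in FFPE and 1.84 in Frozen. The 20 hepatocyte markers fitted the label: their median was 6.82 in liver FFPE and 7.35 in liver Frozen, against 3.47 to 4.10 in the 6 columns of the other organs, and none was at 0.

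In liver FFPE, 1550 of the 22316 genes with at least 40 counts over the pair were at least 2-fold higher than in liver Frozen (6.95%), and 1490 were at least 2-fold lower (6.68%). With 1 column a side there is no replicate error and no test within liver. Intervals given below are exact 95% Clopper-Pearson intervals of the FFPE to Frozen ratio and cover counting error only. The genes on the higher side had few counts: with at least 200 counts over the pair, 172 genes remained 2-fold higher and 1242 lower. The split also moved with the scaling. It was 679 higher and 1177 lower with all columns brought to the same median and spread. With columns scaled to their total outside mitochondrial genes it was 3174 higher and 491 lower. That scaling moved every liver difference by the same amount, and the median of all genes to 0.33 (log2), against 0.04 as deposited. Signs that turn under it are read against 0.33.

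**Figure D1:**
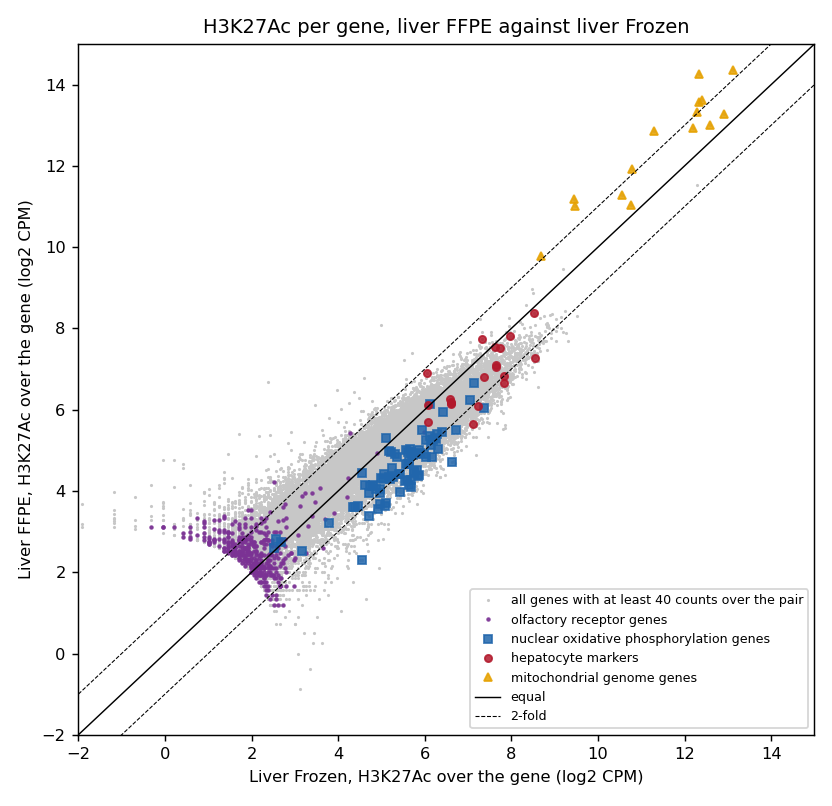
H3K27Ac over each gene in liver FFPE (vertical axis) and liver Frozen (horizontal axis), both in log2 CPM as deposited, for genes with at least 40 counts over the pair; coloured points are 4 gene lists, the solid line marks equal values and the dashed lines 2-fold. The cloud is flatter than the line of equal values: olfactory receptor genes at the low end lie mostly above it (median difference 0.48, a sign that turns under 2 other scalings), most hepatocyte markers (-0.43, or 0.01 under quantile normalization) and respiratory chain genes (-0.85) lie below it, and the 15 mitochondrial genes lie above it.

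Liver had the most genes past 2-fold of the 4 organs. Among the 20858 genes with at least 40 counts in every pair, 1200 were higher and 1392 lower in liver, 1053 and 779 in heart, 387 and 351 in kidney, and 372 and 197 in brain. Over their own genes, the shares higher and lower were 5.43% and 3.86% in heart, 2.5% and 2.76% in kidney and 2.53% and 1.83% in brain. Of the 1550 genes higher in liver, 27.7% were also at least 2-fold higher in heart, 15.2% in kidney and 14.2% in brain. Of the 1490 genes lower in liver, 21.4% were also lower in heart, 7.25% in kidney and 3.02% in brain.

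As deposited, the liver difference followed the level of a gene, a slope that was gone once the columns had the same spread. Genes were put in 10 bins by their mean level in brain, heart and kidney, values that liver does not share. In the lowest bin of 2232 genes the median liver difference was 0.44 (log2), and in the highest it was -0.30. In the lowest bin 25.4% of genes were at least 2-fold higher in liver FFPE and 5.78% lower, and in the highest 0.672% were higher and 8.56% lower. Heart went the same way, with medians of 0.45 and -0.27 in its lowest and highest bins, while kidney (-0.03 and 0.05) and brain (-0.04 and 0.10) did not. Binned by the level in liver itself, the median ran from 0.51 in the lowest bin to -0.57 in the highest. With all columns at the same median and spread, the lowest and highest bins by level in the other organs stood at 0.0036 and -0.05, and under quantile normalization at 0.0 and 0.15, scalings chosen for the bins after seeing the data. The slope is therefore not separable here from the narrower spread of liver FFPE (SD 1.95) than of liver Frozen (SD 2.30). Levels are counts over a gene and are not divided by its length.

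The difference also followed the CpG content of promoters. Active promoters of widely used genes commonly lie in CpG islands, where the dinucleotide CG is as frequent as the base composition allows. The observed-to-expected CpG ratio was taken over 300 bases, 250 before and 50 after the start, for the 16497 genes with at least 40 counts and a RefSeq promoter. The median liver difference was 0.34 in the tenth of genes poorest in CpG and -0.26 in the tenth richest, against 0.33 and -0.26 in heart. At the same median and spread the liver bins stood at 0.08 and -0.17, and under quantile normalization at 0.07 and -0.02. In kidney these bins stood, as deposited, at -0.07 and 0.01 and in brain at -0.02 and 0.02. Short genes with CpG-rich promoters stood lowest: of 1098 genes under 5 kb with a ratio of at least 0.6, 22.6% were at least 2-fold lower in liver FFPE and 3.01% higher, with a median of -0.56. Of 1343 genes under 5 kb with a ratio below 0.4, 6.63% were lower and 18.8% higher, with a median of 0.22. The separate parts of level, length and CpG content in the difference were not tested.

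**Figure D2:**
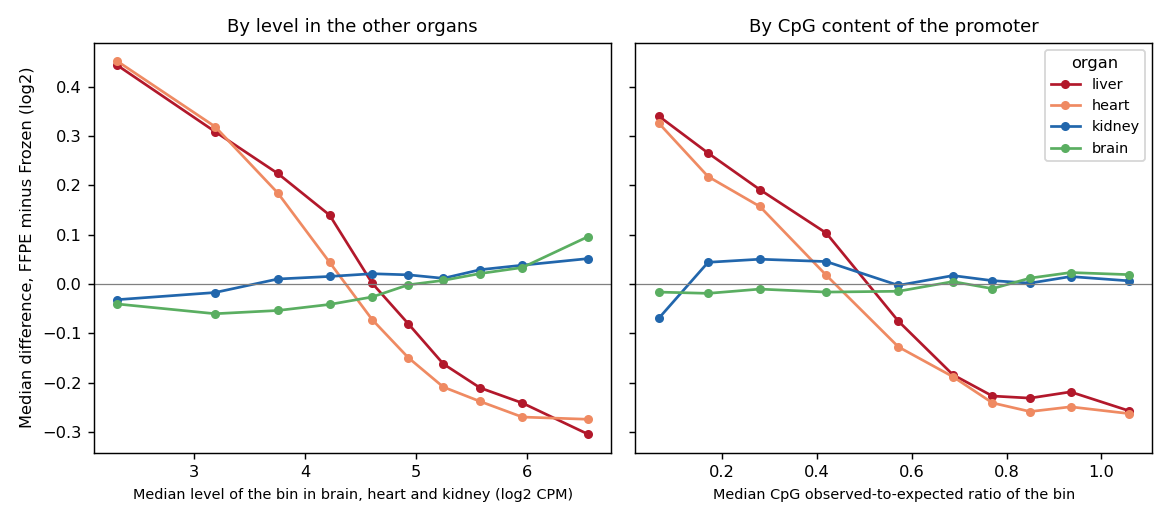
Median FFPE minus Frozen difference (log2, as deposited) in 10 bins of genes, by level in brain, heart and kidney (left, log2 CPM; for these 3 organs the bins hold their own values) and by the observed-to-expected CpG ratio of the promoter (right), with 1 line for each organ. The lines of liver and heart slope down, in liver from 0.44 to -0.30 and from 0.34 to -0.26, and those of kidney and brain have ends between -0.07 and 0.10; once columns share 1 median and spread, the liver ends by level are 0.0036 and -0.05.

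A CpG-rich and a CpG-poor promoter, neither from the end bins, show what these ratios mean; both genes were chosen after their values were seen. Ndufa8, a subunit of respiratory complex I, had 22 counts in liver FFPE and 132 in liver Frozen, a difference of -2.25, and a ratio of 0.745. Olfr1431, an odorant receptor gene silent outside olfactory tissue, had 39 counts in liver FFPE and 4 in liver Frozen, a difference of 3.44, and a ratio of 0.237. The 250 bases before each start are given 5′ to 3′ on the gene's strand from RefSeq, build GRCm38.p6, with each CG in capitals. Ndufa8 lies on the minus strand at chr2:36049339-36049588 with 17 CG, and Olfr1431 on the plus strand at chr19:12209318-12209567 with 2.
Ndufa8: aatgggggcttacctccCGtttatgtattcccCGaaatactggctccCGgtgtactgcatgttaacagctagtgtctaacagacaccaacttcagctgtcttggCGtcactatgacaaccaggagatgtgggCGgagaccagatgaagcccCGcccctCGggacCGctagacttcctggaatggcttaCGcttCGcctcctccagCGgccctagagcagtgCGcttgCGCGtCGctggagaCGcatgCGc
Olfr1431: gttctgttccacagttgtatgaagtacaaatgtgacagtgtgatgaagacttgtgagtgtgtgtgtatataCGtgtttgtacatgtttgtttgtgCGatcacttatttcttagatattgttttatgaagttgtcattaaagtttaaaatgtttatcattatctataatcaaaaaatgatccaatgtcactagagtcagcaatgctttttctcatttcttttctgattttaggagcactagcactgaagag

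Genes of hepatocyte function stood lower in liver FFPE, by about as much as other genes of their level in liver. Over the 406 measured genes on liver function lists together the median difference was -0.44, with 56 at least 2-fold lower (13.8%) and 2 higher, beside a median of 0.04 and 6.68% lower over all genes. The list's median level was 5.95 log2 CPM in liver FFPE and 6.41 in liver Frozen, and all genes with a mean liver level of 5.97 to 6.50 had a median difference of -0.42 with 11.5% lower. The list was not tested against genes of like level. Under the 3 other scalings the list median lay between -0.29 and -0.11, and 405 of the 406 genes had the 40 counts needed to be called 2-fold. The same genes had medians of 0.13 in heart, 0.03 in kidney and -0.01 in brain. Liver was the lowest of the 4 organs for 58.1% of them, beside 27.9% of all genes. In whole tissue, fewer cells of a type and less acetylation per cell cannot be told apart.

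The genes of lipoprotein export stood lowest among these lists. All 21 apolipoproteins and assembly genes were negative in liver, with a median of -0.86, and 7 were at least 2-fold lower (33.3%). All genes in the highest bin by liver level, from 6.50 log2 CPM, had a median of -0.57 with 15.01% lower. Apoc3, an inhibitor of lipoprotein lipase, had 5.64 log2 CPM in liver FFPE and 7.11 in liver Frozen, an interval of 0.308 to 0.417 for the ratio. Apoa1, the main protein of high-density lipoprotein, had 6.66 in liver FFPE and 7.84 in liver Frozen, a difference of -1.18. Its neighbour in role Apoa2 differed by -1.23, and Apoc4 by -1.28. In heart the list's median was 0.24 and in kidney 0.34, where the 20 hepatocyte markers are at the low levels given above.

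Secreted plasma proteins had a median of -0.53, with 3 of 25 at least 2-fold lower and 1 higher. Alb, the albumin gene, stood out from its list, with 7.55 log2 CPM in liver FFPE and 7.63 in liver Frozen and a ratio interval of 0.865 to 1.04 that holds 1; its difference of -0.08 became 0.22 to 0.52 under 3 other scalings. Rbp4, which carries retinol, had 6.48 in liver FFPE and 7.90 in liver Frozen, and Vtn, the adhesion protein vitronectin, had 586 counts in liver FFPE and 1689 in liver Frozen. Ttr, which carries thyroid hormone, differed by -0.42, or by 0.01 under quantile normalization. Serpina1e, one of several near-identical antitrypsin copies and so uncertain, was the member that stood higher, with 254 counts in liver FFPE and 78 in liver Frozen. It was also higher in heart (1.96), kidney (1.62) and brain (2.69).

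Complement and clotting genes had a median of -0.61, with 6 of 37 at least 2-fold lower (16.2%) and none higher. At a liver level of 5.97 to 6.50, 11.5% of all genes were lower. C8a, of the complement attack complex, had 731 counts in liver FFPE and 2087 in liver Frozen, a difference of -1.20. Fgg, a fibrinogen chain, differed by -1.18, the complement protease gene Cfb by -1.14 and the clotting factor gene F10 by -1.14. Of 21 acute phase genes, which hepatocytes induce in inflammation, 4 were at least 2-fold lower and none higher, with a median of -0.56. These were 20.0% of the 20 with 40 counts, beside 7.53% of all genes at a liver level of 5.18 to 5.56. Apcs, which encodes serum amyloid P, had 158 counts in liver FFPE and 703 in liver Frozen, a difference of -1.84, and Crp, C-reactive protein, differed by -1.19.

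Bile acid genes had a median of -0.43, and the enzymes of its branch points went different ways. Cyp8b1, which sets the share of cholic acid, had 7.26 log2 CPM in liver FFPE and 8.54 in liver Frozen, a difference of -1.28, and was the 1 of 22 genes past 2-fold. Cyp7a1, the rate-limiting enzyme, was on the other side, with 6.90 in liver FFPE and 6.06 in liver Frozen and a ratio interval of 1.58 to 2.06. Slc27a5, which activates bile acids for conjugation, differed by -0.98.

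Drug metabolism genes were lower with exceptions. Of 54 cytochrome P450 genes of families 1 to 4, 6 were at least 2-fold lower (11.1%) and none higher, with a median of -0.37. All genes at a liver level of 5.18 to 5.56 had 7.53% lower. Cyp2c39 (-1.55), Cyp2c68 (-1.41) and Cyp2c67 (-1.30) stood lowest, copies of a cluster whose shared reads make single values uncertain, while Cyp2e1, which oxidizes ethanol, differed by 0.06 with an interval of 0.896 to 1.21. Of 45 conjugating enzymes of phase II, 8 were at least 2-fold lower (17.8%) and none higher, with a median of -0.42. All genes at a liver level of 5.56 to 5.97 had 9.23% lower. The glucuronosyltransferase Ugt1a9 differed by -1.33 and the glutathione transferase Gstk1 by -1.25.

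Genes of intermediary metabolism followed. Gluconeogenesis and glycogen genes had a median of -0.66, with 3 of 25 at least 2-fold lower. Pck1, the enzyme that commits carbon to glucose, had 8.06 log2 CPM in liver FFPE and 8.82 in liver Frozen, a difference of -0.76, while G6pc, which releases free glucose, differed by -0.12 with an interval of 0.818 to 1.03, or by 0.16 to 0.38 under 3 other scalings. Fgf21, a hormone that liver secretes in fasting, stood lowest, with 72 counts in liver FFPE and 300 in liver Frozen, a difference of -1.74. Urea cycle and amino acid genes had a median of -0.32, with 3 of 36 lower, 8.33% and so near the 6.68% of all genes. Prodh2, a hydroxyproline dehydrogenase, stood lowest at -1.49, and Cps1, the first enzyme of the urea cycle, had 7.75 log2 CPM in liver FFPE and 7.33 in liver Frozen, a ratio interval of 1.22 to 1.46. Tat, which breaks down tyrosine, differed by -0.16, a sign that turned under 3 other scalings.

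Fatty acid oxidation genes had a median of -0.52, with 6 of 37 at least 2-fold lower (16.2%) and none higher. At a liver level of 5.97 to 6.50, 11.5% of all genes were lower. Acot2, a mitochondrial thioesterase, differed by -1.44, and Acaa1a and Acaa1b, peroxisomal thiolases, by -1.34 and -1.32. Sterol and fatty acid synthesis genes had none of 37 past 2-fold and a median of -0.22, or 0.16 under quantile normalization. Scaled outside mitochondrial genes it was 0.07, where the median of all genes was 0.33. Hmgcs1, an early enzyme of cholesterol synthesis, and Insig1, which holds back its activation, both differed by -0.77.

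Factors that hold the hepatocyte programme were among the lower genes, by about as much as other genes of their level in liver. Of 34 liver-enriched transcription factors, 5 were at least 2-fold lower (14.7%) and none higher, with a median of -0.53. Their median level was 6.505 log2 CPM in liver FFPE and 6.91 in liver Frozen. All genes in the highest bin by liver level, from 6.50 log2 CPM, had 15.01% lower and a median of -0.57. Foxa1, a pioneer factor that opens chromatin, had 512 counts in liver FFPE and 1716 in liver Frozen, a difference of -1.43. Cebpa differed by -1.09, the xenobiotic receptor gene Nr1i3 by -1.01, and Foxa2 by -0.65. Hnf4a, the nuclear receptor gene named above, had 7.53 log2 CPM in liver FFPE and 7.74 in liver Frozen, a difference of -0.21 whose sign turned under 3 other scalings.

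Zones of the lobule were set beside each other, since hepatocytes near the portal vein and near the central vein use different genes. Of 22 periportal genes, 5 were at least 2-fold lower (22.7%) and none higher, with a median of -0.55. Of 27 pericentral genes, none was 2-fold lower and 1 was higher (3.70%), beside 6.68% lower and 6.95% higher over all genes. The pericentral median was -0.25, or 0.16 under quantile normalization. Scaled outside mitochondrial genes it was 0.05, where the median of all genes was 0.33. Apof, a lipid transfer inhibitor, had 7.14 log2 CPM in liver FFPE and 8.31 in liver Frozen on the portal side. On the central side Slc1a2, a glutamate transporter, had 6.64 in liver FFPE and 5.58 in liver Frozen, and Glul, glutamine synthetase, differed by 0.09. Levels differed between the lists: the median was 6.27 in liver FFPE and 6.87 in liver Frozen for periportal genes, and 5.68 in liver FFPE and 5.58 in liver Frozen for pericentral ones. All genes in the highest bin by liver level had a median difference of -0.57, and all genes at 5.56 to 5.97 had -0.28, close to the 2 list medians. The shares 2-fold lower were 15.01% in the highest bin and 9.23% at 5.56 to 5.97. Liver was the lowest of the 4 organs for 77.3% of periportal and 14.8% of pericentral genes, beside 27.9% of all genes. The difference between the lists was not tested.

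Sex-biased liver genes held no common direction. Male-biased genes had 3 of 24 at least 2-fold higher (12.5%) and 1 lower, beside 6.95% higher over all genes. Female-biased genes had none of 31 higher and 4 lower (12.9%), beside 6.68% lower over all genes. The medians went the other way, at -0.36 for male-biased genes (9 positive, 15 negative) and 0.17 for female-biased genes (19 positive, 12 negative). Elovl3, a fatty acid elongase gene higher in males, had 491 counts in liver FFPE and 270 in liver Frozen, while Cyp2b9, higher in females, had 34 in liver FFPE and 113 in liver Frozen. The Y-linked Ddx3y had 157 counts in liver FFPE and 238 in liver Frozen, so both columns hold Y chromosome DNA. Xist, the RNA gene of X inactivation, had 238 in liver FFPE and 231 in liver Frozen.

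**Figure D3:**
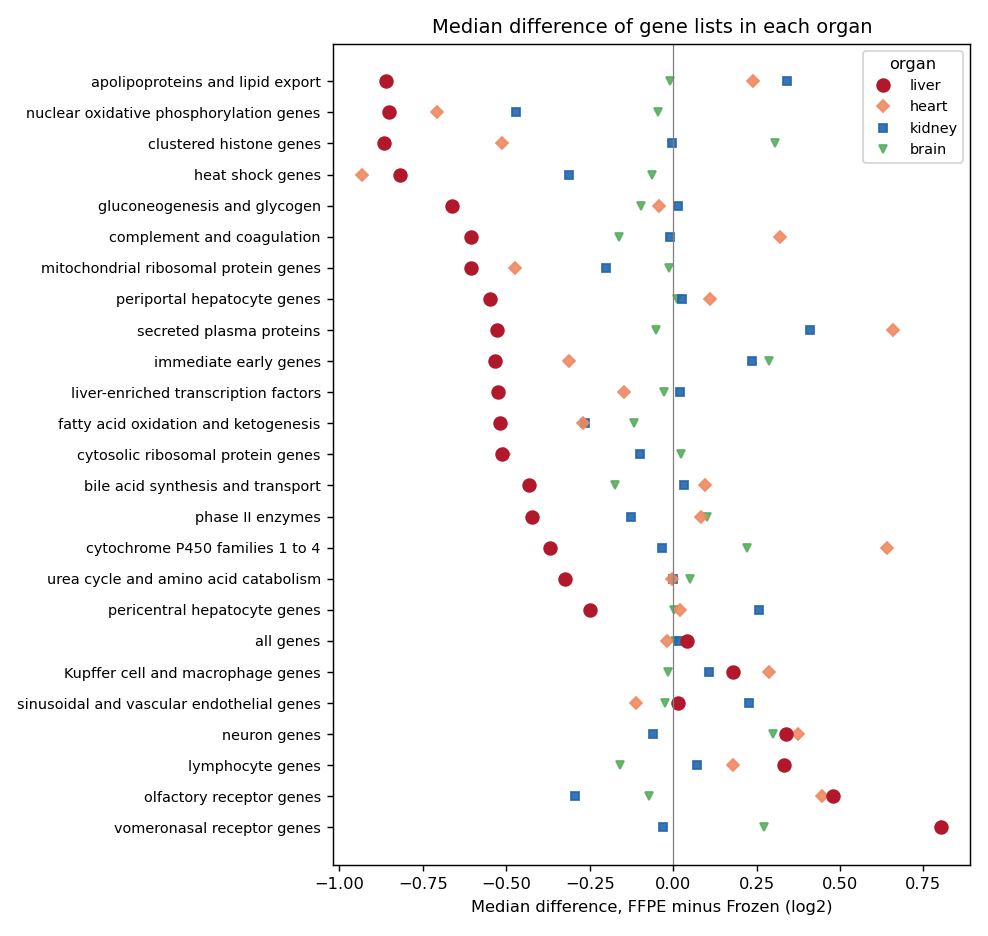
Median FFPE minus Frozen difference (log2) over the measured genes of 25 groups, lists and all genes, in liver (red circles), heart, kidney and brain. Lists of hepatocyte function lie at -0.86 to -0.25 in liver and at -0.27 to 0.66 in the other organs (the heart point of vomeronasal receptors, 0.80, lies under that of liver), while heat shock, respiratory chain and ribosomal protein genes are negative in heart too; the liver medians of pericentral, Kupffer cell and olfactory receptor genes change sign under another scaling.

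Summed over their markers, Kupffer, endothelial and stellate cells differed less between the columns than hepatocytes. The summed level of the 20 hepatocyte markers was 2545 CPM in liver FFPE and 3462 CPM in liver Frozen, while their median difference of -0.43 became 0.01 under quantile normalization. For 22 cholangiocyte genes, of the bile ducts, the sum was 691 in liver FFPE and 831 in liver Frozen. That of 30 Kupffer cell and macrophage genes was 903 in liver FFPE and 940 in liver Frozen, that of 32 endothelial genes 1676 in liver FFPE and 1714 in liver Frozen, and that of 31 stellate and mesenchymal genes 1026 in liver FFPE and 1049 in liver Frozen. No marker of these lists was at 0 in either column. Their medians were 0.18 for Kupffer cells, which became -0.01 at the same median and spread, 0.02 for endothelium and -0.01 for stellate cells, which became 0.06 there. None of the Kupffer genes was past 2-fold in either direction. Levels differed between the lists, with the hepatocyte markers in the highest bin by liver level, where all genes had a median of -0.57. All genes at a liver level of 4.34 to 4.78, near the Kupffer and stellate lists, had a median of 0.11, with 5.07% lower and 3.41% higher. The difference between the cell types was not tested against genes of like level.

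Single markers of these cells differed more. Cholangiocyte genes had a median of 0.13, with 15 of 22 positive, 3 at least 2-fold lower and 2 higher. Tspan8, a membrane tetraspanin of that list, stood highest, with 54 counts in liver FFPE and 18 in liver Frozen. At the other end, Sox9, a factor of bile duct cells, had 248 counts in liver FFPE and 838 in liver Frozen, a difference of -1.45. Col1a1, a collagen of stellate cells and fibroblasts, was on the other side at 1.06, as was Erg, an endothelial factor, at 1.24. Lymphocyte genes had a median of 0.33, with 28 of 33 positive. Neuron genes, which liver cells do not use, had 0.34, with 23 of 26 positive. Over all genes 14048 of 26944 were positive. All genes at a liver level of 3.85 to 4.34, near the levels of both lists, had a median of 0.26. The summed level was 681 CPM in liver FFPE and 621 CPM in liver Frozen for lymphocyte genes. For neuron genes it was 587 CPM in liver FFPE and 450 CPM in liver Frozen. The part of other cells in these values was not tested.

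Early response, fasting and heat shock lists held more genes 2-fold lower than the 6.68% of all genes. Of 39 immediate early genes, 9 were at least 2-fold lower (23.1%) and none higher, beside 11.5% of all genes at a liver level of 5.97 to 6.50, with medians of -0.53 in liver, -0.31 in heart, 0.24 in kidney and 0.29 in brain. Jund, a subunit of the factor AP-1, had 1079 counts in liver FFPE and 3480 in liver Frozen, a difference of -1.38, and Jun differed by -1.35. Egr1, a zinc finger factor of early response, differed by -0.85, and Fos by -0.27, a sign that turned under quantile normalization and outside mitochondrial genes. Ier2, another early response gene, stood lowest of the list at -1.39.

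Of 30 genes induced by glucocorticoids or fasting, 6 were at least 2-fold lower (20.0%), with a median of -0.68, beside 15.01% and -0.57 over all genes in the highest bin by liver level. Klf15, a factor of amino acid and glucose metabolism, had 674 counts in liver FFPE and 2220 in liver Frozen, a difference of -1.41, and Irs2, which relays insulin signals, differed by -1.14. All 20 heat shock genes were negative in liver, beside 12896 of 26944 over all genes, and 4 were at least 2-fold lower (20.0%). Their median was -0.82. All genes at a liver level of 5.97 to 6.50 had a median of -0.42 with 11.5% lower. In heart the median of the heat shock genes was -0.93. Liver was the lowest of the 4 organs for 7 of the 20 (35.0%, beside 27.9% of all genes). Bag3, a partner of heat shock protein 70, differed by -1.31, and Hspe1 and Hspd1, the paired mitochondrial chaperonins, by -1.25 and -1.09. Of 21 clock genes, 2 were at least 2-fold lower (9.52%, near the share of all genes), with a median of -0.39 that became 0.02 under quantile normalization and is smaller than the -0.42 of all genes at a liver level of 5.97 to 6.50. The heme receptor gene Nr1d2 differed by -1.12 and the repressor gene Cry1 by -1.09.

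Respiratory chain and ribosomal protein genes, which every cell uses, were lower as well. Of 87 measured nuclear genes of the respiratory chain and ATP synthase, 26 were at least 2-fold lower and none higher, with a median of -0.85. Of the 81 with 40 counts these are 32.1%, beside 5.38% of all genes at a liver level of 4.78 to 5.18, whose median was -0.05; the list's own median level was 4.43 in liver FFPE and 5.44 in liver Frozen. Medians in the other organs were -0.71 in heart, -0.47 in kidney and -0.05 in brain. Atp5d, a subunit of ATP synthase, had 120 counts in liver FFPE and 557 in liver Frozen, a difference of -1.90. Of 78 mitochondrial ribosomal protein genes, 20 were lower, with a median of -0.60, and of 83 cytosolic ones 17, with a median of -0.51. Of those with 40 counts these are 26.0% and 21.2%, also beside 5.38% of all genes at that level. Of all genes under 5 kb with a CpG-rich promoter, 22.6% were lower, with a median of -0.56. None of these lists was matched for gene span or promoter CpG content. Rps13 differed by -1.61 and Mrps28 by -1.60. Both ribosomal lists and the respiratory chain kept a negative median under the 4 other scalings and pseudocounts tried. Proteasome genes, also used by every cell, had 3 of 39 at least 2-fold lower (7.69%), near the 6.68% of all genes. Their median was -0.44, and liver was the lowest of the 4 organs for 28.2%, beside 27.9% of all genes.

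Clustered histone genes are short intronless genes that lie side by side and are used in DNA replication. Of 62 measured, 23 were at least 2-fold lower and none higher, 38.3% of the 60 with 40 counts. Over all genes 6.68% were lower, and 5.07% of those at a liver level of 4.34 to 4.78. Among genes under 5 kb with a CpG-rich promoter 22.6% were lower. The median of the histone genes was -0.87 in liver, -0.51 in heart, -0.0044 in kidney and 0.31 in brain. Liver was the lowest of the 4 organs for 48 of the 62 (77.4%), beside 27.9% of all genes. H2bc12 had 19 counts in liver FFPE and 174 in liver Frozen, a difference of -2.85. H2ac12 (-1.88), H2ac23 (-1.80) and H2bc8 (-1.66) followed; their copies are near-identical, and single values are uncertain where reads have several positions.

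The 15 genes of the mitochondrial DNA stood higher in liver FFPE, with a median of 1.14, and liver had the smallest difference of the 4 organs for all 15. Medians were 3.13 in heart, 2.33 in kidney and 1.75 in brain. ND2, a subunit of complex I, had 89651 counts in liver FFPE and 29173 in liver Frozen.

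Receptor families that liver does not use stood higher as deposited, the olfactory one only under some scalings. Of 1108 olfactory receptor genes with a count, 398 had 40 over the liver pair, of which 100 were at least 2-fold higher (25.1%) and 10 lower. Over all genes 6.95% were higher. In the lowest bin by liver level, up to 2.64 log2 CPM, 27.1% of all genes were higher, with a median of 0.51. The olfactory share was thus near that of other genes at a low level. The median over all 1108 was 0.48, but it became -0.08 at the same median and spread and -0.05 under quantile normalization. The 348 vomeronasal receptor genes had a median of 0.80, which stayed positive, at 0.33 and 0.34, under both of these scalings. Among 201 with 40 counts, 56 were at least 2-fold higher (27.9%, also near the share of the lowest bin) and 1 lower. Vmn1r103 had 48 counts in liver FFPE and 0 in liver Frozen, and Vmn1r148 had 115 in liver FFPE and 7 in liver Frozen. Both were also higher in the other 3 organs, and their copies are near-identical. Hox genes, which pattern the body axis, had a median of 0.31, with 5 of 39 at least 2-fold higher and none lower. These 5 were 13.9% of those with 40 counts, beside 12.4% of all genes at a liver level of 3.30 to 3.85. At the same median and spread the Hox median was -0.00096.

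The genes furthest above liver Frozen were high in the FFPE column of the other organs too. By the bound of the counting interval the 10 highest, with predicted genes and receptor families left aside, were Skint3, Skint4, Trim12a, Rbm31y, Sprr2a2, Pramel33, Duxbl1, Sprr2a1, Pnp2 and Zfp981. In heart 10 of these 10 were at least 2-fold higher in FFPE, in kidney 9 and in brain 9. Skint3, of a family of skin and thymus genes that supports intraepithelial T cells, had 96 counts in liver FFPE and 0 in liver Frozen, at least 39.6-fold higher with 3 counts taken as the floor of a column; the lower end of its counting interval was 31.6. It had 74, 76 and 132 counts in heart, kidney and brain FFPE, and 0 in each of their Frozen columns. Skint4, its neighbour on chromosome 4, had 71 counts in liver FFPE and 0 in liver Frozen, at least 29.3-fold higher on the same floor, with a lower interval end of 23.2.

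Trim12a, related to the antiviral gene Trim5 of other mammals, had 4.76 log2 CPM in liver FFPE and -0.04 in liver Frozen, with a ratio interval of 12.7 to 95.5. Zfp981, a zinc finger gene of a clustered family, had the most counts of the 10, with 411 in liver FFPE and 88 in liver Frozen, a difference of 2.53. Most of these genes belong to families of similar copies, so how shared reads were counted bears on these values.

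The 10 genes furthest below liver Frozen, chosen in the same way, were Bglap3, H2bc12, Cwc22, Acnat2, Rnf225, Enho, Mir3105, H2-T9, Gna14 and Srp54b, and 6 of them were at least 2-fold lower in heart, 2 in kidney and 1 in brain. Acnat2, which conjugates fatty acids to amino acids in peroxisomes, had 5.52 log2 CPM in liver FFPE and 7.80 in liver Frozen, a difference of -2.28, against 0.30 in heart, 0.04 in kidney and -0.50 in brain. Enho, which encodes the metabolic peptide adropin, had 182 counts in liver FFPE and 1002 in liver Frozen, a difference of -2.15, against -1.06 in heart, 0.44 in kidney and 0.17 in brain. Gna14, a G protein subunit, differed by -1.99 in liver and by -0.44 to -0.05 in the others.

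Cwc22, a splicing factor, had 213 counts in liver FFPE and 1303 in liver Frozen, a difference of -2.30, against -2.19 in heart, -2.36 in kidney and -0.93 in brain. Srp54b, a copy of the signal recognition particle gene, was lower in all 4 organs, by -2.02 in liver. Bglap3, an osteocalcin copy, had 2 counts in liver FFPE and 49 in liver Frozen.

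**Figure D4:**
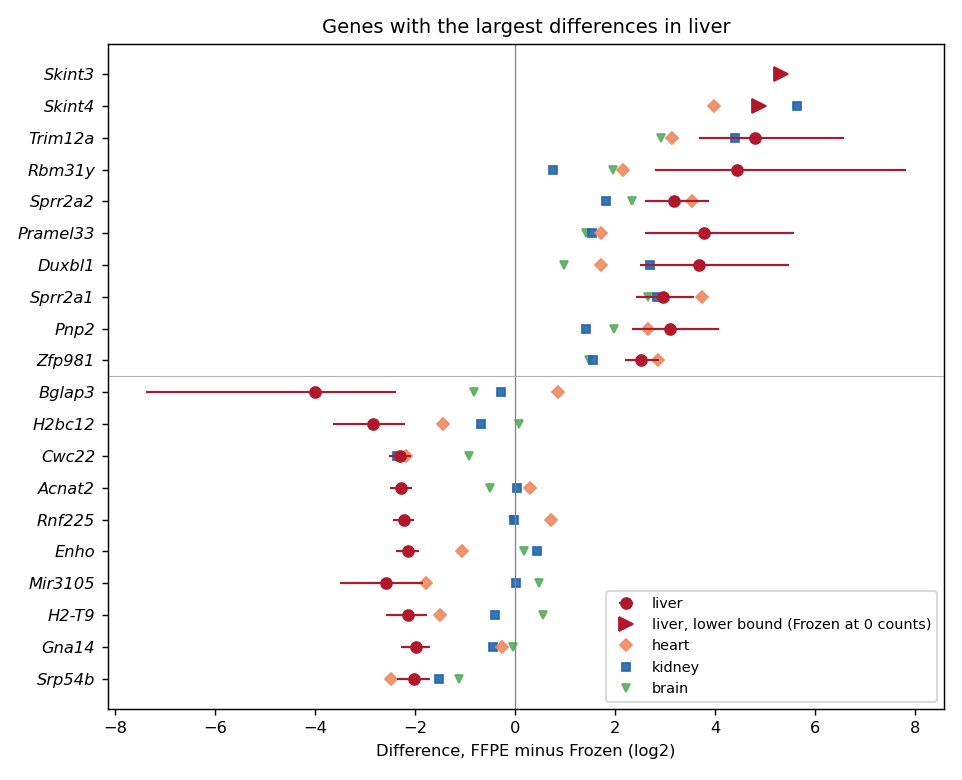
FFPE minus Frozen difference (log2) of the 10 genes furthest above and the 10 furthest below liver Frozen: red circles with 95% counting intervals are liver, red triangles are lower bounds where liver Frozen had 0 counts, and other symbols are the remaining organs, left out where the Frozen column had 0 counts. Every point shown lies above 0 for the upper 10 and below 0 for Cwc22 and Srp54b, while liver stands apart from the other organs for Acnat2, Rnf225, Enho and Gna14.

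The liver difference was tested against that of heart, kidney and brain, with the organs standing in as replicates and liver assumed to vary as they do. By limma with Benjamini-Hochberg adjustment over 26944 genes, 0 genes rose further in liver and 2 fell further (0.00742%), at a threshold of 0.05. At an unadjusted p under 0.05 there were 1011 higher and 1215 lower. Inhbe and Rnf225 were the 2 genes.

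Inhbe, at chr10:127349402-127351848 in GRCm38.p6, encodes the inhibin beta E subunit, a hormone chain that hepatocytes secrete. It had 6.75 log2 CPM and 491 counts in liver FFPE, and 8.34 log2 CPM and 1833 counts in liver Frozen. The difference was -1.59 in liver, against 1.08 in heart, 0.27 in kidney and 0.99 in brain. Liver minus the mean of the others was -2.37 ± 0.43 (SE, limma adjusted p = 0.049). Only liver was lower in FFPE among the 4 pairs of columns.

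Rnf225, a RING finger gene at chr7:12927416-12931072, had 5.62 log2 CPM and 224 counts in liver FFPE, and 7.85 log2 CPM and 1307 counts in liver Frozen. The difference was -2.23 in liver, against 0.72 in heart, -0.02 in kidney and -0.05 in brain. Liver minus the mean of the others was -2.45 ± 0.43 (SE, limma adjusted p = 0.049). Both calls were lost, with adjusted p of 0.08 to 0.48, under 3 other scalings and without the variance trend.

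The promoters of both genes were poor in CpG and so unlike those of the short CpG-rich genes that stood lower as a group. Their observed-to-expected ratios were 0.246 for Inhbe and 0.252 for Rnf225. The 250 bases before each start, from RefSeq build GRCm38.p6 with CG in capitals, lie on the minus strand at chr10:127351849-127352098 for Inhbe, with 6 CG, and on the plus strand at chr7:12927166-12927415 for Rnf225, with 2.
Inhbe: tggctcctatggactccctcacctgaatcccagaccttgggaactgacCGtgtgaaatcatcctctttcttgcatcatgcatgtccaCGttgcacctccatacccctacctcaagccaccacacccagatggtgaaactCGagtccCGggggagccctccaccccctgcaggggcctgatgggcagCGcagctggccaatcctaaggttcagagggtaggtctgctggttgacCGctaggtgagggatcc
Rnf225: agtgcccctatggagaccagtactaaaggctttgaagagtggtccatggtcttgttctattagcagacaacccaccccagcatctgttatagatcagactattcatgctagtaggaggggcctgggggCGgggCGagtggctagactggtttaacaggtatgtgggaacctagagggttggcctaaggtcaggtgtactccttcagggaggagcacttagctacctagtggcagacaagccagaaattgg

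**Figure D5:**
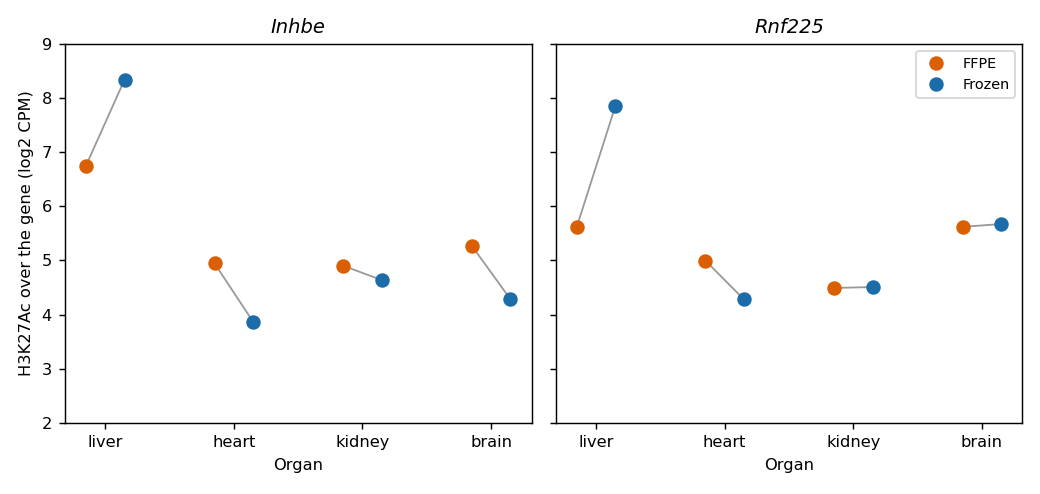
H3K27Ac over Inhbe (left) and Rnf225 (right) in log2 CPM, FFPE in orange and Frozen in blue, 1 deposited column per point, paired by organ. In liver the FFPE point lies 1.59 below the Frozen one for Inhbe and 2.23 below for Rnf225, and liver Frozen is the highest of the 8 columns for both.

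The heart column decided how many genes were called. Without heart, leaving kidney and brain as the comparison and 1 residual degree of freedom, limma called 205 genes higher (0.761%) and 487 lower (1.81%) in liver. Among those lower were 12 of 39 immediate early genes, 14 of 62 clustered histone genes, 7 of 30 glucocorticoid and fasting genes and 22 of 406 liver function genes, of which 2 were called higher. Olfactory receptor genes had 35 of 1108 higher and 3 lower, and vomeronasal receptor genes 8 of 348 higher and none lower. Without brain the counts were 0 higher and 3 lower, and without kidney 3 higher and 7 lower. Inhbe and Rnf225 were called lower in each of these 3 fits, which used the same liver columns and took every gene's variance from the trend alone.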

How the data were processed

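H3K27Ac chromatin immunoprecipitation and sequencing was done in 4 mouse organs. The submitters' processing notes name Bowtie2, featureCounts, limma and build mm10, with versions, the counted part of a gene and the treatment of multiply placed reads not given in the sources used here. Values in the deposited table are log2 CPM in 8 columns, scaled by the authors with a factor for each column. Each value gave back a whole count, with 0.5 added before the log, in 100% of cases. The deposited log2 values were used unchanged; the counts served for intervals and for the minimum of 40 over the pair. Genes at 0 in all columns were left out. Differences between liver and the other organs were fitted with limma 3.58.1 in R 4.3.3 (organ, preservation and a liver FFPE term, with a variance trend), which was tested on simulated data, with Benjamini-Hochberg adjustment over all genes. The genes, lists and naming rule were chosen with earlier results of these data known. Named genes were the 10 furthest each way by interval bound, those past the limma threshold, up to 4 per list by interval bounds, and a fixed set of liver and early response genes. Promoters came from RefSeq (GRCm38.p6). Alternatives covered scaling, pseudocount, count minimum, fold threshold, variance trend and each other organ left out. Nothing says whether libraries came from separate animals, and input samples were not used here.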

Additional observations from a re-analysis of the deposited data

Results flagged for a closer look

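Inhbe and Rnf225 are listed because the liver difference stood apart from that of heart, kidney and brain by a test of the difference itself. For Inhbe, liver minus the mean of the other organs was -2.37 on the log2 scale, with liver alone lower in FFPE among the 4 organs. For Rnf225 it was -2.45, with differences of -0.02 in kidney and -0.05 in brain and a higher FFPE value in heart. Both genes passed the threshold of limma with Benjamini-Hochberg adjustment when any 1 of the other organs was left out. Those fits used the same liver columns, left 1 residual degree of freedom and took every gene's variance from the trend alone. With all organs their adjusted p was 0.049, and neither passed at the same median and spread, under quantile normalization, scaled outside mitochondrial genes or without the variance trend.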

How the results depend on the processing

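No paired analysis was possible because the columns carry no replicate number; the limma model pairs FFPE with Frozen by organ alone. Genes at least 2-fold higher and lower in liver FFPE numbered 679 and 1177 at the same median and spread, 691 and 926 under quantile normalization, 3174 and 491 scaled outside mitochondrial genes, 2368 and 1636 with at least 20 counts, 172 and 1242 with at least 200, 4174 and 4554 at 1.5-fold, 416 and 151 at 3-fold, and 327 and 517 by the interval's bound. By limma against the other organs, genes called higher and lower numbered 0 and 0 at the same median and spread, 1 and 0 under quantile normalization, 0 and 0 outside mitochondrial genes, 1 and 7 with a pseudocount of 5, and 0 and 0 without the variance trend; leaving out 1 organ gave 0 to 205 higher and 3 to 487 lower, the upper ends without heart. The median of all genes was 0.04 as deposited, -0.08 at the same median and spread, 0.0047 under quantile normalization and 0.33 outside mitochondrial genes, against which the following medians are read. Respiratory chain genes stood at -0.70 under quantile normalization and -0.56 outside mitochondrial genes; liver function genes at -0.29, -0.11 and -0.15 under the 3 scalings in the order above; hepatocyte markers at 0.0050 under quantile normalization and -0.13 outside mitochondrial genes; olfactory receptor genes at -0.079, -0.046 and 0.77. Other medians that turned sign were those of sterol synthesis (0.16 under quantile normalization, 0.069 outside mitochondrial genes), endoplasmic reticulum stress (0.0091) and clock genes (0.015) under quantile normalization, and antigen receptor segments (-0.38 at the same median and spread, -0.21 under quantile normalization). Single genes that turned sign were Fos (0.040 under quantile normalization, 0.025 outside mitochondrial genes), Ttr (0.013 under quantile normalization), Hnf4a (0.19, 0.39 and 0.080) and Tat (0.28, 0.54 and 0.13 under the 3 scalings). The cause was not tested. With 1 promoter per gene in RefSeq, a choice made after seeing the data, the CpG bins ran from 0.36 to -0.25. Of the end bins, also rescaled after seeing the data, those by level turned to 0.0 and 0.15 under quantile normalization, and the CpG-richest to 0.037 outside mitochondrial genes. Intervals cover counting error only, and 1 column a side gives no replicate error.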

Other observations

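Lists of stress responses other than heat held a few lower genes each in liver FFPE. Of 25 endoplasmic reticulum stress genes, 4 were at least 2-fold lower (16.0%), beside 15.01% of all genes in the highest bin by liver level. Among them were Chac1, which breaks down glutathione, at -1.42, and the factor gene Atf4 at -1.18. The list's median of -0.42 turned sign under quantile normalization. Of 27 hypoxia response genes, 3 were lower (11.1%), with Higd1a at -1.66 and lactate dehydrogenase Ldha at -1.22. Over all genes at a liver level of 5.56 to 5.97, 9.23% were lower. Of 20 p53 response genes and 23 oxidative stress genes, 2 each were lower, shares of 10.0% and 8.70% that are near the 6.68% of all genes. Interferon response genes had 1 of 26 higher and 1 lower. Ifit3, an antiviral effector, had 298 counts in liver FFPE and 95 in liver Frozen, and was also higher in FFPE of the other 3 organs. Irf1, an interferon response factor, differed by -1.22.

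By chromosome, the median liver difference lay between -0.12 on chromosome 19 and 0.09 on chromosome 14, apart from the mitochondrial DNA and the Y chromosome. The 28 measured genes of the Y chromosome had medians of 0.44 in liver, 0.71 in heart, 0.43 in kidney and 0.46 in brain. The list of cardiomyocyte genes holds some with high values in liver, such as Atp2a2, with 7.33 log2 CPM in liver FFPE and 7.98 in liver Frozen. In each liver column 12 of the 26 lay above the median of all genes. Of the 26 cardiomyocyte genes, 4 were at least 2-fold higher in liver FFPE and none lower, with a median of 0.26. These 4 were 16.7% of those with 40 counts, beside 6.05% of all genes at a liver level of 3.85 to 4.34, whose median was 0.26. Major urinary protein genes, a cluster of near-identical copies, had a median of 0.02, with 1 of 22 higher.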
